A study of Mus musculus with 2 samples.

Results

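The genes described here are 10 Toll-like receptors (TLRs) of the mouse, Tlr1 to Tlr9 and Tlr13, out of 32448 genes read on the array. Probe targets without a gene symbol count as genes in this number and in all shares, medians and ranks over all genes. A member was found through the RefSeq accession of its probe, which gave 11 probes for the 10 genes. The samples were bone marrow-derived macrophages (BMDMs), which are macrophages grown from mouse bone marrow with M-CSF. Untreated BMDMs were set against BMDMs exposed to interleukin 4 (IL-4) over 18 h, and their Cy3-labelled RNA was read on single-colour Agilent arrays, 1 array per condition and 2 in all. Both cultures came from male Crif1 f/f mice aged 8 weeks, whose Crif1 gene is flanked by loxP sites, and the methods name no Cre for them. The dose of IL-4 used for the arrays and the number of mice behind each RNA are not given in the sources used here. The study read these arrays for factors that IL-4 induces in macrophages, and the question asked here is how the TLR transcripts differed between the same cultures.

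TLRs are membrane proteins that recognise conserved microbial molecules and start inflammatory gene expression in macrophages. Tlr1, Tlr2, Tlr4, Tlr5 and Tlr6 act mainly at the cell surface on lipids and proteins of microbes, whereas Tlr3, Tlr7, Tlr8, Tlr9 and Tlr13 sit in endosomes and bind nucleic acids. After binding, the intracellular TIR domain recruits adaptors such as Myd88 or Ticam1, which lead to NF-κB and to interferon regulatory factors. IL-4 acts through STAT6 and drives macrophages toward an M2-like state, while many TLR ligands drive the M1-like state.

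All values are log2 of the background-subtracted intensity minus the 75th percentile of the array, and differences are IL-4 minus untreated. With 1 array per condition no difference has a replicate check and no p-value is given, and condition and array cannot be told apart. The error given is the SD of the log2 difference between spots, as a median over probes that were printed in 10 spots and had a signal within 1 log2 unit. Variation between cultures is no part of this SD. Probe levels of different genes are not compared, because each probe has its own response. No member spot was saturated or flagged as an outlier. Differences in RNA of a bulk culture cannot separate fewer cells of a type from less RNA per cell. Both arrays lay on the same slide, and the scanner software flagged 59.8% of gene spots as well above background for untreated BMDMs and 57.4% for IL-4. A probe counted as detected when most of its spots carried that flag. All 6 macrophage markers read here were detected on both arrays, and the sum of their signals, in multiples of the array's 75th percentile, was 308 in untreated and 273 in IL-4-treated BMDMs. Of the 6, 2 were higher after IL-4 and 4 lower, with a median log2 difference of -0.71. The differences were 0.17 for Adgre1 (F4/80), 0.090 for Csf1r, -0.71 for Itgam, -0.70 for Lyz2, -1.14 for Mertk and -1.23 for Fcgr1. Markers of other cell types that can carry TLRs left signal as well. The study reported high purity of its BMDMs by surface staining. The sums serve to compare the arrays, not the lists. The 6 neutrophil markers were all detected and summed to 6.28 in untreated and 4.52 in IL-4-treated BMDMs, and the 4 fibroblast markers to 99.1 and 84.4. Of 7 dendritic cell markers 4 were detected on each array, with sums of 38.2 and 40.6, and Flt3, Clec9a and Xcr1 were not. Most of these sums came from 1 Siglech probe (intensity 29067 and 31659), and the other Siglech probe was detected on neither array. Of 4 T cell markers 2 were detected, with sums of 0.949 and 0.878, and of 6 mast cell, basophil and eosinophil markers 5 were in untreated BMDMs and 4 after IL-4, with sums of 0.539 and 0.404. The part of such cells in the TLR values was not tested.

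Among the receptors of the cell surface, Tlr1 and Tlr4 were higher after IL-4, Tlr2 was lower, Tlr6 differed by less than the spot error and Tlr5 was not detected. Tlr1 forms a dimer with Tlr2 that binds triacylated lipopeptides. Its probe (A_51_P495581) had an intensity of 1042 in untreated BMDMs and 1748 after IL-4, and the scaled log2 difference was 0.65 (SD between spots 0.057, 82 probes of similar signal), a 1.57-fold higher signal. Tlr2, the partner of both Tlr1 and Tlr6, is the member with spots enough to show its own spread. Its probe (A_51_P452629) was printed in 10 spots, with intensities from 3820 to 4298 and a median of 4062 in untreated BMDMs, and from 3066 to 3369 with a median of 3165 after IL-4. The scaled values of the 2 arrays did not overlap, and each of the 10 spots was lower on the IL-4 array. The log2 difference of Tlr2 was -0.45 (SD 0.048 over its 10 spots), a 1.36-fold lower signal. Tlr6, which pairs with Tlr2 for diacylated lipopeptides, had an intensity of 698 in untreated BMDMs and 739 after IL-4 (A_52_P117393). Its log2 difference of -0.018 was smaller than the spot SD of 0.061, and its sign turned under other scalings.

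Tlr4, the receptor for lipopolysaccharide, had an intensity of 949 in untreated BMDMs and 1462 after IL-4 (A_66_P124806). The log2 difference was 0.52 (SD 0.058), a 1.44-fold higher signal. Tlr5, the flagellin receptor, was not detected on any array (A_55_P2131428). Its intensity was 27.9 in untreated BMDMs and 22 after IL-4, where the dimmest detected probes had 29.2 and 27.9, so no fold is given.

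The endosomal receptors included the largest difference in each direction within the family. Tlr8, which lies next to Tlr7 on the X chromosome and is related to it, had an intensity of 216 in untreated BMDMs and 443 after IL-4 (A_55_P1996266), and its log2 difference was 0.94 (SD 0.081), a 1.92-fold higher signal. Tlr13, which recognises bacterial ribosomal RNA in the mouse, had an intensity of 19802 in untreated BMDMs and 10842 after IL-4 (A_55_P2048279). The log2 difference of Tlr13 was -0.97 (SD 0.045), a 1.96-fold lower signal. Both differences were over 10 times the spot SD and both lay just short of 2-fold.

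Tlr7, a receptor for single-stranded RNA, was read by 2 probes. The brighter probe (A_55_P2129047) had an intensity of 2266 in untreated BMDMs and 1968 after IL-4, and the other (A_55_P2050932) had 2153 and 1803. Their log2 differences of -0.30 (SD 0.054) and -0.36 (SD 0.055) lay in the same direction and differed from each other by about the spot SD. Tlr9, the receptor for unmethylated CpG DNA, had an intensity of 1318 in untreated BMDMs and 1285 after IL-4 (A_51_P432563), with a log2 difference of -0.14 (SD 0.058). The signs of Tlr7 and Tlr9 hold relative to the median of all genes, while on the absolute scale spike-in scaling, which sets the arrays on 8 control probes for RNA added to each sample, gave 0.024 for Tlr7 and 0.19 for Tlr9, and median scaling gave 0.079 for Tlr9. Tlr3, the receptor for double-stranded RNA, was detected on neither array, with an intensity of 12.5 in untreated BMDMs and 14.3 after IL-4 (A_52_P85174).

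**Figure D1:**
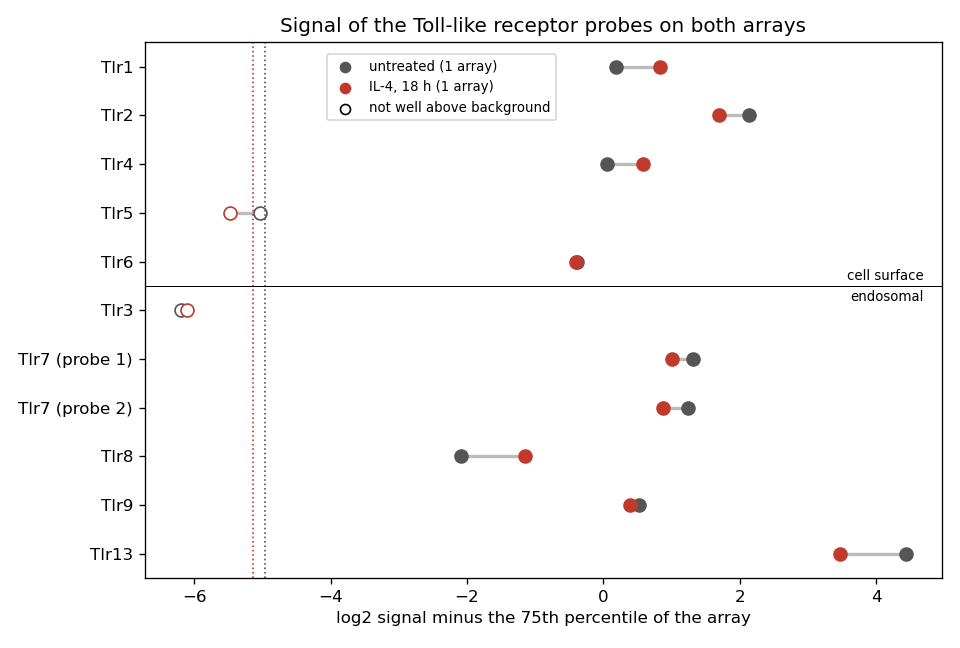
Each row is 1 Toll-like receptor probe, with its log2 signal minus the 75th percentile of the array on the x axis for the untreated array (grey) and the IL-4 array (red). Open circles are not well above background, and the dotted lines mark the lowest signal well above background on each array. Tlr1, Tlr4 and Tlr8 lay further right after IL-4, Tlr2, Tlr7 and Tlr13 further left, and Tlr3 and Tlr5 had no usable signal.

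Over the family, 8 of 10 members were detected, each of the 8 on both arrays. None of these 8 reached a 2-fold difference. Of all 19743 genes detected on 1 array or both, 2.86% differed 2-fold or more upward and 4.47% downward, so a count of 0 among 8 is near that background. At a smaller log2 difference of 0.5, a 1.41-fold difference, 3 of the 8 members were higher (Tlr1, Tlr4 and Tlr8) and 1 was lower (Tlr13), where 7.43% and 13.6% of all those genes were. Tlr4 fell short of that smaller size with normexp, which models background and signal together in place of the software's own subtraction (0.48), and with the 75th percentile taken over detected probes (0.47). With the latter, Tlr2 just reached it downward (-0.5005). Among the 17242 genes detected on both arrays, as the 8 members were, the shares at 0.5 were 5.88% and 7.74%, and at 2-fold they were 2.11% and 1.57%. At a log2 difference of 1.5 the members' count was again 0 in either direction, beside 1.15% higher and 1.53% lower among all 19743 genes. The median log2 difference of the 8 members was -0.077, beside -0.015 for these 17242 genes, and 3 members were positive and 5 negative. Ranked among the same genes, the difference of Tlr8 was above that of 97.6% of genes, Tlr1 above 95.9%, Tlr4 above 94.5%, and Tlr6 above 49.5%. Tlr9 stood above 31.6%, Tlr7 above 16.5%, Tlr2 above 9.57% and Tlr13 above 1.74%. The median of the family thus lay near that of all genes while its members were spread over the ranking. Tlr8, Tlr1 and Tlr4 stood near the top, Tlr13 and Tlr2 near the bottom, and Tlr6, Tlr9 and Tlr7 between.

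**Figure D2:**
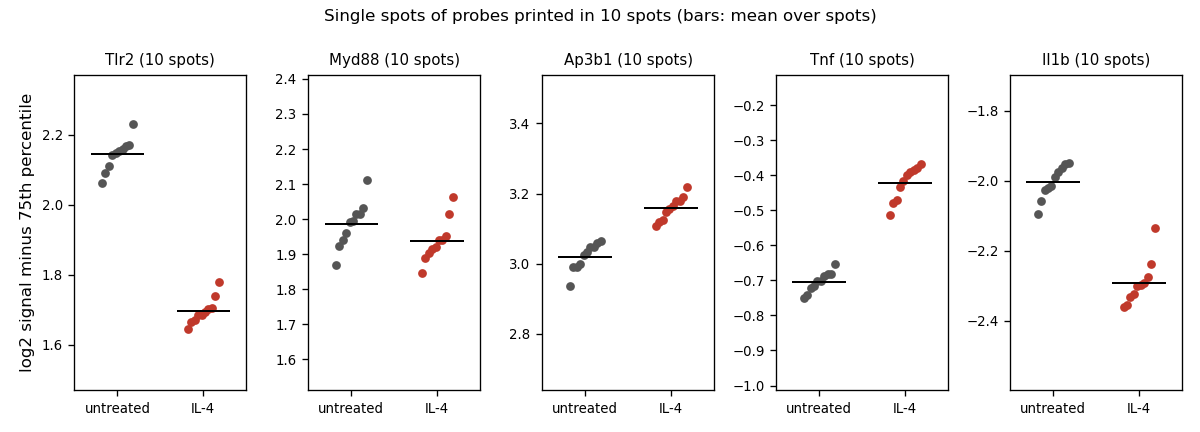
Single spots of 5 probes that were printed in 10 spots, as log2 signal minus the 75th percentile of the array (y axis, with 0.9 log2 units shown in each panel), for the untreated array (grey) and the IL-4 array (red); bars are means over spots. The spots of Tlr2 did not overlap between arrays (difference -0.45), those of its adaptor Myd88 did (difference -0.046), and the spots are technical repeats on 1 array.

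Because the choice of scaling moves all genes together, the members were also read relative to the median of all genes measured on both arrays. That median was -0.015 here, 0.20 with median scaling, 0.085 without scaling and 0.31 with spike-in scaling. Relative to it, the difference of Tlr8 lay between 0.74 and 1.0 over 8 scalings and background steps, that of Tlr1 between 0.64 and 0.68 and that of Tlr4 between 0.52 and 0.54. Tlr13 lay between -1.03 and -0.91, Tlr2 between -0.48 and -0.37, Tlr7 between -0.32 and -0.28 and Tlr9 between -0.15 and -0.045. Tlr6 lay within -0.0031 and 0.022 of the median of all genes. On the absolute scale Tlr8 passed 2-fold with 4 of 6 other scalings, with up to 1.26 on the spike-in controls, and Tlr13 with 3 of 6, with down to -1.05 after quantile normalization. Of the 8 measured members Tlr8 moved most with the background step, to 0.70 with normexp.

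**Figure D3:**
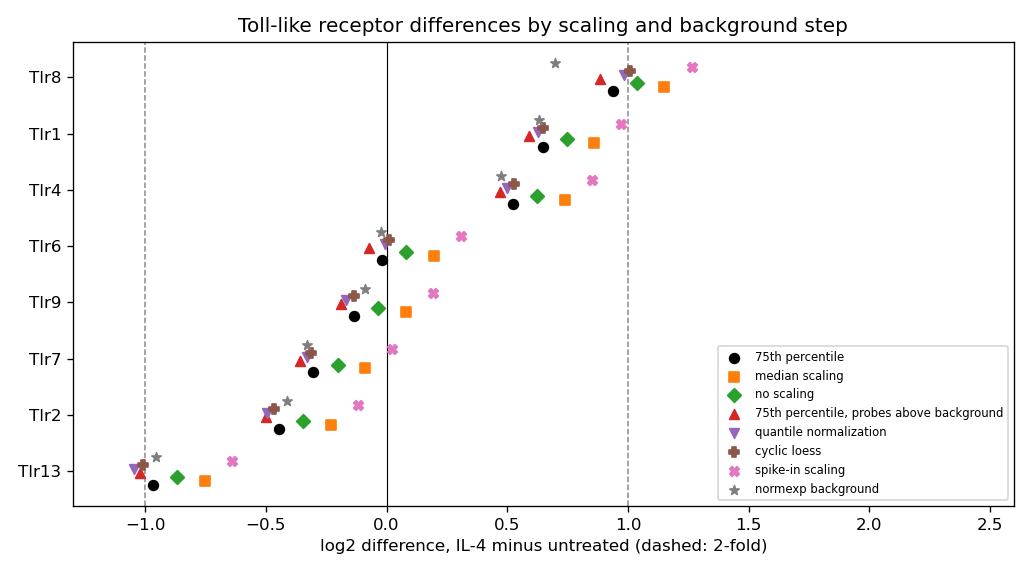
The log2 difference of each measured Toll-like receptor (x axis, IL-4 minus untreated) under 7 scalings of the arrays and 1 other background step, with 1 symbol per setting and dashed lines at 2-fold. The order from Tlr13 to Tlr8 is similar under each setting while all genes shift together, and Tlr13 and Tlr8 lie on either side of the 2-fold lines.

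The receptors that work in pairs did not differ alike. The differences of Tlr1 and Tlr2 lay 1.09 log2 units apart, and those of Tlr6 and Tlr2 lay 0.43 apart, with a combined spot SD of 0.078 and 0.081. Genes that neighbour each other also parted. Tlr1 and Tlr6 are next to each other on chromosome 5, and their differences lay 0.66 apart (combined spot SD 0.084). Tlr8 and Tlr7 are next to each other on the X chromosome, and their differences lay 1.24 apart (combined spot SD 0.097). Such gaps within an array do not depend on a constant scaling factor, but there is no test of them across cultures.

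The windows before the start sites of 3 endosomal receptors are shown because these receptors span the range of the family, with the highest (Tlr8), the lowest (Tlr13) and a small (Tlr9) difference. Each is the 250 bases before the start, from RefSeq on GRCm38.p6, 5′ to 3′ on the strand of the gene. Capitals mark matches on either strand to 7 motifs, chosen after the values were seen: the STAT6 site (TTC and GAA with any 4 bases between), the STAT site (TTC and GAA with any 3 bases between), the interferon-stimulated response element core (GAAA and again GAAA with any 2 bases between), the PU.1 core GAGGAAG, the AP-1 site TGANTCA, an NF-κB-like site (GGG and TTTCC with any 2 bases between) and the TATA box TATAAA.
Tlr8, GRCm38.p6 chrX:167264330-167264579, minus strand: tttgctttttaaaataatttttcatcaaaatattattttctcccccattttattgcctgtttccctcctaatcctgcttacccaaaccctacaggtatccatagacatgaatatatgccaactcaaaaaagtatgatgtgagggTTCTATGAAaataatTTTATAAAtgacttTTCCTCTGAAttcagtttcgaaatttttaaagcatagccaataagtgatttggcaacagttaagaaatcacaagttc
Tlr13, GRCm38.p6 chrX:106143025-106143274, plus strand: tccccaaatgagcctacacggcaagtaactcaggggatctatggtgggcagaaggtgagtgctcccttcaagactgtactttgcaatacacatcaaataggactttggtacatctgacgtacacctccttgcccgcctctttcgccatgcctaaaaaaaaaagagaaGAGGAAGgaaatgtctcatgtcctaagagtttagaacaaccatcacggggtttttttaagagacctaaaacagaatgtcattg
Tlr9, GRCm38.p6 chr9:106222348-106222597, plus strand: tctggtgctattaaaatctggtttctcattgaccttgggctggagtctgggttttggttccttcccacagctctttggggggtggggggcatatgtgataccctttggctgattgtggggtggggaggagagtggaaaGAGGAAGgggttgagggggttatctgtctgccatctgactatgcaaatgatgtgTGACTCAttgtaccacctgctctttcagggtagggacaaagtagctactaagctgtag
The Tlr8 window held 1 STAT6 site and 1 STAT site, and between them TATA box matches on both strands that overlap each other. The Tlr13 window held a PU.1 core, a motif of the myeloid factor PU.1, and the Tlr9 window held a PU.1 core and an AP-1 site. Windows were found for 8 members, and Tlr4 and Tlr7 are named only. The 8 members had 10 windows, because Tlr1 and Tlr6 had more than 1 each. Members are counted as genes and the shares as windows, so Tlr1 and Tlr6 had more room for a match. Among the members a STAT6 site was found for Tlr8 and a STAT site for Tlr1 and Tlr8, where 5.85% and 7.02% of 32851 windows of this length hold one. A PU.1 core was found for Tlr1, Tlr9 and Tlr13, against 10.6% of all windows. That of Tlr1 lay in another window than its STAT site. Cores of the interferon-stimulated response element were found for Tlr6 (2.98% of all windows), and an NF-κB-like site for Tlr3 (1.41%). The TATA box letters were in windows of Tlr6 and Tlr8 (12.4%), and the AP-1 site in that of Tlr9 (6.75%). The TATA box letters of Tlr6 lay in another window than its interferon-stimulated response element cores. A match describes the letters and says nothing of binding in these cells.

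Among the proteins that help TLRs bind ligand, Cd14 was lower after IL-4, and the other 5 genes lay between -0.29 and 0.34. Cd14, which hands lipopolysaccharide to Tlr4 and also serves other TLRs, had an intensity of 15287 in untreated BMDMs and 6118 after IL-4. Its log2 difference was -1.42 (SD 0.049), a 2.68-fold lower signal, and it stayed past 2-fold with spike-in scaling, at -1.09. Ly96 (MD-2), which binds lipopolysaccharide together with Tlr4, had a log2 difference of -0.053 (SD 0.057). Tlr4 and Cd14 thus lay 1.94 log2 units apart and Tlr4 and Ly96 0.58 apart. Cd180, a TLR-like surface protein, had a difference of -0.049 (SD 0.12), and its partner Ly86 (MD-1) one of 0.31 (SD 0.045). Cd36, a scavenger receptor that assists Tlr2 with Tlr6, had a difference of 0.34 (SD 0.046), and Lbp, the lipopolysaccharide-binding protein, one of -0.29 (SD 0.18). Of the 6 genes of this list, all detected on both arrays, 1 passed 2-fold, downward. Of all 19743 detected genes 4.47% did, and of the 17242 detected on both arrays 1.57%. The median of the 6 was -0.051. A difference between -0.33 and 0.055 changes its sign under at least 1 of 4 scalings that shift all genes by a constant, so those of Ly96, Cd180 and Lbp, and any other difference in that range, have no settled direction.

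Genes for the folding, transport and cutting of TLRs stayed within 2-fold. Unc93b1, the transporter that brings the endosomal receptors to their compartment, had intensities of 15968 and 16440 and a log2 difference of -0.058 (SD 0.047). The 8 genes of folding and trafficking ranged from -0.60 for Rab7b to 0.54 for Slc15a3, an endolysosomal peptide transporter, with a median of -0.084. The 5 endosomal proteases ranged from -0.26 for Ctsk to 0.019 for Lgmn, with a median of -0.11.

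Adaptors and kinases next to the receptors lay within 2-fold. Myd88, the adaptor of most TLRs, was printed in 10 spots, with intensities from 3341 to 3958 in untreated BMDMs and from 3524 to 4096 after IL-4. The scaled values of the arrays overlapped, and the log2 difference was -0.046 (SD 0.050 over its 10 spots). Tirap had a difference of -0.060 (SD 0.061) and Ticam1 (TRIF), the adaptor of Tlr3, one of 0.075 (SD 0.061). Ticam2 (TRAM) and Sarm1 were detected on neither array. The lowest difference of the 6 adaptor genes was that of Pik3ap1 (BCAP), at -0.93 (SD 0.11). All 20 kinases and ubiquitin ligases were measured on both arrays and lay within 2-fold, from -0.72 for Peli2 to 0.32 for Map3k8, with a median of -0.011.

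Of 15 inhibitors of TLR signalling, all detected on both arrays, 2 passed 2-fold, both upward. Of all 19743 detected genes 2.86% did, and of the 17242 detected on both arrays 2.11%. Il1rl1 (ST2), the IL-33 receptor that also restrains TLR signals, had an intensity of 1654 in untreated BMDMs and 8883 after IL-4. Its log2 difference was 2.33 (SD 0.053), a 5.01-fold higher signal, with 1.83 at the next probe and a lower bound of 0.52 at the dimmest, which was detected after IL-4 alone. Tnip3, a partner of the ubiquitin-editing enzyme Tnfaip3 (A20), had differences of 1.94 and 1.51 at its 2 probes. Tnfaip3 itself had a difference of 0.68 (SD 0.058). Irak3 (IRAK-M), which blocks the kinases downstream of Myd88, had a difference of -0.65 (SD 0.061), and Tollip had 0.19, 0.011 and -0.032 at its 3 probes. The list median was 0.14.

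Genes that TLR signals are known to induce did not share a direction. Ccl4, a chemokine, had an intensity of 1217 in untreated BMDMs and 3580 after IL-4, 2.75-fold higher (log2 difference 1.46, SD 0.055). Il6 had 65.6 and 150, with a log2 difference of 1.1 (SD 0.16) that was 0.45 with normexp. Nfkbiz, an inducible NF-κB cofactor, had 245 and 128 and a log2 difference of -1.04 (SD 0.10), which was -0.71 with spike-in scaling. Nfkbiz also fell short of 2-fold with median scaling (-0.82), no scaling (-0.94), quantile normalization (-0.97), cyclic loess (-0.92) and normexp (-0.88). Tnf was 0.28 higher in its 10 spots (SD 0.051) and Il1b 0.29 lower (log2 difference -0.29, SD 0.091, within the range that changes sign), and neither overlapped between the arrays. Of 12 such genes detected on 1 array or both, 2 passed 2-fold upward and 1 downward, beside 2.86% and 4.47% of all 19743 detected genes. Among the 17242 genes detected on both arrays these shares were 2.11% and 1.57%. The median was 0.28 over the 11 detected on both, and Ifnb1, Il10 and Il23a were detected on neither. The 7 endogenous ligands, each at its brightest probe, ranged from -0.25 for Bgn to 0.40 for Vcan. The other Vcan probes had a difference of -0.084 and, detected in untreated BMDMs alone, a signal at least 2.3-fold lower. Hmgb1 had 0.011 at its brightest probe and from -0.52 to 0.11 at its others. Tlr12, a profilin receptor outside the 10 members, had an intensity of 128 in untreated BMDMs and 48.1 after IL-4, with a log2 difference of -1.51 (SD 0.19) that was -0.85 with normexp, and Tlr11 was detected on neither array. Over the 94 detected genes of the 10 pathway lists, the cytosolic receptors described further on included, 5 passed 2-fold upward and 4 downward. Of all 19743 detected genes 2.86% and 4.47% did. Of the 17242 genes detected on both arrays, as 93 of the 94 were, 2.11% and 1.57% did. The median of the pathway genes detected on both arrays was -0.023.

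**Figure D4:**
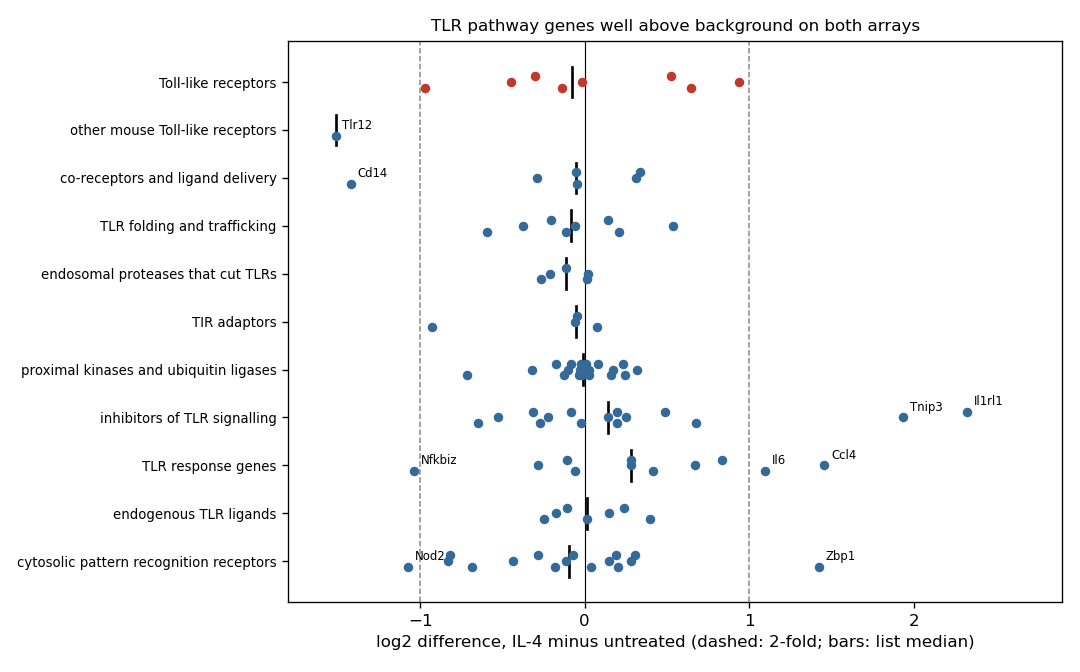
Log2 difference (x axis, IL-4 minus untreated) of each gene of the Toll-like receptor family (red) and of the pathway lists (blue) that was detected on both arrays, with 1 point per gene, a bar at each list's median and dashed lines at 2-fold. Named points lie past 2-fold, where Cd14 (-1.42) and Tlr12 (-1.51) are lower and Il1rl1 (2.33) and Tnip3 (1.94) are higher, while the adaptors and kinases lie within 2-fold, with medians of -0.053 and -0.011.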

How the data were processed

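The members and gene lists were chosen with earlier results of these data known. The authors deposited Agilent Feature Extraction 10.10.1.1 output, whose spot intensity has the background subtracted and within-array trends removed, with no scaling across arrays. The authors also deposited processed log2 values, whose centring is not stated. Their differences for the 11 member probes were within 0.000565 of those from the scanner intensity after the 75th percentile scaling used here. They are thus no separate check of that scaling. Outlier-flagged and control spots were left out, spots of a probe were averaged on the log2 scale, and the 75th percentile over 39424 probes was subtracted. Groups came from the sample labels. A gene was read from its brightest probe, and 27229 of the 39424 probes were named through RefSeq accessions (GRCm38.p6, names only, as the array was annotated on mm9). Each target of the other probes was counted as a gene of its own. A probe counts as well above background when most of its spots carry that flag as deposited. Well above background on 1 array gives a lower bound, and on neither no fold. All 10 members are named, with list genes at least 2-fold different and direct partners of the receptors. No test was possible with 1 array per condition. A marker list of another cell type is not reported here. The code that counts 2-fold genes was run on simulated data with large set changes in detected probes. This checks the code alone and says nothing of noise in dim probes or variation between cultures. Alternatives were other scalings, normexp with an offset of 50 on the median pixel intensity, other filters, probe rules and cutoffs. Python 3.11.15, numpy 2.4.6, pandas 2.3.3, matplotlib 3.10.9, R 4.3.3 and limma 3.58.1 were used.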

Additional observations from a re-analysis of the deposited data

How the results depend on the processing

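The number of arrays limits the precision, and dim probes such as Tlr8 and Tlr12 depend on the background step. No paired analysis was possible because a condition holds 1 array, and for the same reason no replicate could be left out. Single differences were called moved past 1 spot SD. The median of the 8 members was -0.077, against 0.14 with median scaling, 0.023 with no scaling and 0.25 with spike-in scaling, which shift all genes together. The count of members at least 2-fold higher went from 0 to 1 (Tlr8) with median scaling, no scaling, cyclic loess and spike-in scaling, and to 3 at a cutoff of 0.5. The count at least 2-fold lower went from 0 to 1 (Tlr13) with the 75th percentile taken over probes detected on both arrays, quantile normalization, cyclic loess and a cutoff of 0.5. Of 96 values of single members under alternatives, 67 stayed within the spot SD and 29 moved. Many of the 67 were fixed in advance. Keeping outlier spots, the 2 other filters and the authors' values could hardly move these members, and the median over probes only Tlr7. No pathway gene past 2-fold turned its sign. No member was past 2-fold, and Tlr6, Tlr7 and Tlr9 changed sign under some scalings.

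Over all genes, the count at least 2-fold higher, at 564, went to 1024 with spike-in scaling, 297 with normexp, 363 with genes detected on both arrays only, 1389 with no filter, 848 with the authors' processed values, 1467 at a cutoff of 0.5 and 228 at 1.5. The count at least 2-fold lower, at 883, went to 564 with median scaling, 532 with quantile normalization, 451 with spike-in scaling, 268 with normexp, 270 with both arrays only, 4075 with no filter, 1645 with the authors' processed values, 2689 at a cutoff of 0.5 and 302 at 1.5. The pathway genes at least 2-fold higher, at 5, went to 9 at a cutoff of 0.5 and 2 at 1.5. Those at least 2-fold lower, at 4, went to 2 with median scaling, no scaling, quantile normalization, cyclic loess and spike-in scaling, 1 with normexp, 12 at a cutoff of 0.5 and 1 at 1.5. Filters and cutoffs set the counts by construction. The authors' processed values were read as plain differences, without the lower bounds for genes detected on 1 array. For other settings the cause was not tested.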

Other observations

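The cytosolic pattern recognition receptors, which sense microbial molecules that reach the cytosol, were read from 16 genes, all of them detected on both arrays. Their median log2 difference was -0.093, with 1 gene past 2-fold in each direction at its brightest probe. Of all 19743 detected genes 2.86% passed upward and 4.47% downward. Of the 17242 genes detected on both arrays 2.11% and 1.57% did. Nlrp1b had a log2 difference of -0.83 at its brighter probe and -1.64 at the other, which is past 2-fold. Nod2, a sensor of bacterial cell wall fragments, had an intensity of 104 in untreated BMDMs and 53.1 after IL-4, with a log2 difference of -1.07 (SD between spots 0.18) that was -0.85 with normexp. Nod2 also fell short of 2-fold with median scaling (-0.86), no scaling (-0.97), quantile normalization (-0.89), cyclic loess (-0.89) and spike-in scaling (-0.75). Zbp1, a sensor of nucleic acids in the Z form, had 229 and 658 at its brighter probe, with a log2 difference of 1.42 (SD 0.072), while its other probe had 0.18 (SD 0.16), so the probes of this gene disagree.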
